A study of Mus musculus with 22 samples.

Results

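The regions described here are the stretches of the mouse genome where hnRNP A1 left a footprint in spinal cords with mild EAE and in spinal cords with severe EAE, but in no naive spinal cord. Footprints of 10 mice were joined into union regions wherever they overlapped or touched. A region was kept when it held a footprint in at least 2 of 3 mild EAE mice, in at least 1 of 4 severe EAE mice and in 0 of 3 naive mice. This rule selected 2015 of 82220 union regions, or 2.45%. The presence and absence of footprints chose these regions, so those values are given as descriptions and were not tested.

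hnRNP A1 is an abundant nuclear RNA binding protein that takes part in splicing, export, stability and translation of RNA, and binds UAG and AG-rich sequence. CLIPseq crosslinks the protein to its RNA with UV light, digests what is unprotected and sequences the RNA that is pulled down with the protein. In EAE, an autoimmune response against a myelin peptide brings leukocytes into the spinal cord, activates resident microglia and astrocytes, and damages myelin and axons.

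All 10 animals were wild-type female mice of the C57Bl/6 strain. The 7 EAE mice were immunized with MOG(35-55) peptide in complete Freund's adjuvant and received pertussis toxin, and their cords were taken 15 days after clinical onset together with those of 3 naive mice of matching age. The sources differ on the age at immunization, which is given as 8 weeks in the series design and as 12 weeks in the treatment protocol. The mild EAE mice were EAE_3 and EAE_4 with a clinical score of 1.5 each and EAE_7 with a score of 1.0. The severe EAE mice were EAE_1 and EAE_5 with a score of 2.5 and EAE_2 and EAE_6 with a score of 3.0. Whole cords were used, so more cells of a type, more RNA per cell and more binding per RNA cannot be told apart in any result below.

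The mice contributed very unequally. Footprints numbered 17119, 17454 and 17494 in the naive mice, 14534, 9751 and 24433 in EAE_3, EAE_4 and EAE_7, and 2670, 209, 31870 and 673 in EAE_1, EAE_2, EAE_5 and EAE_6. EAE_5 stood apart from the other severe EAE mice. The sample table of the study matches EAE_5 to the severe EAE mouse that the study describes as an outlier and as in remission shortly before the end. EAE_3, EAE_4 and EAE_7 had a footprint in 1637, 1147 and 1706 of the selected regions. Of the severe EAE mice, EAE_5 had a footprint in 1946 of them, EAE_1 in 225, EAE_6 in 92 and EAE_2 in 18. EAE_5 was the only severe EAE mouse in 1705 regions (84.6%). Without EAE_5 the rule left 306 regions on 263 genes, so what follows is largely a description of regions that EAE_5 shared with the mild EAE mice.

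**Figure D1:**
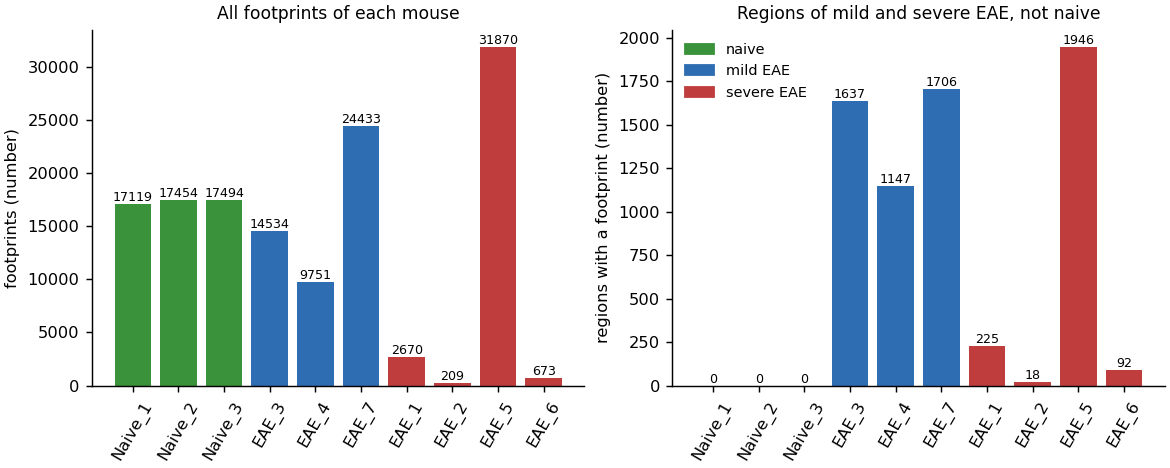
Bars show, for each mouse on the horizontal axis, the number of all footprints (left) and the number of regions of mild and severe EAE, not naive, that held a footprint (right), with naive mice in green, mild EAE in blue and severe EAE in red. EAE_5 reached 1946 regions, and the other severe EAE mice reached between 18 and 225.

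Coding exons held most, but not all, of the regions that recurred in most mice. A region of Col1a1, the gene of the collagen type I alpha 1 chain, had a footprint in 2 mild and 4 severe EAE mice. Regions of Arrb2 (beta-arrestin 2, which desensitizes receptors), Grn (progranulin, a lysosomal and secreted protein) and A2m (the protease inhibitor alpha-2-macroglobulin) had footprints in all 3 mild and 3 severe EAE mice. For these regions the stretch covered in every one of the footprinted mice is printed below from the GRCm38 genome, on the strand of the gene and with U written as T. Capitals mark TAG (UAG in RNA) and AGGT (AGGU in RNA), the motifs counted below. Regions with 2 mild and 3 severe EAE mice also lay in the 3′ UTR of Ptms, at the 5′ UTR of Rpl32 and on the snRNA gene Gm24265, and are not printed. The stretches of Pdia3, a protein disulfide isomerase, and Hnrnpk, a poly(C) binding hnRNP, were covered in 2 mild and 3 severe EAE mice. The Hnrnpk region had a near-identical copy elsewhere in the genome, so its assignment is uncertain. The stretch of C3, complement component 3, is shown because C3 held the most regions. Most of these stretches held neither motif or held it once.
Col1a1, chr11:94947883-94947922, plus strand: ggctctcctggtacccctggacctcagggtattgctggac
Arrb2, chr11:70440164-70440230, plus strand: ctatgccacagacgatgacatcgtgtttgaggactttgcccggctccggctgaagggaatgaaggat
Grn, chr11:102435059-102435105, plus strand: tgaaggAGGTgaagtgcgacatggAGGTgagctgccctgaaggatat
A2m, chr6:121660944-121660969, plus strand: ctgggcggtgatccccaagtcatTAG
Pdia3, chr2:121414021-121414109, plus strand: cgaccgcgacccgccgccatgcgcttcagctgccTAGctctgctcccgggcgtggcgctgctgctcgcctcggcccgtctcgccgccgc
Hnrnpk, chr13:58399925-58399990, minus strand: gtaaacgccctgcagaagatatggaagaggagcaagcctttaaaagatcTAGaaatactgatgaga
C3, chr17:57218459-57218615, minus strand: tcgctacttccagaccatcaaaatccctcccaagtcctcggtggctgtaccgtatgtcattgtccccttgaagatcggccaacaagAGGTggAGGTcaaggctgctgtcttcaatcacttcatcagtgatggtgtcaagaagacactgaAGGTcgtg

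The Col1a1 region was 109 nt long, and the footprint covered 109 nt in EAE_3, EAE_7 and EAE_1, 108 nt in EAE_5 and EAE_6 and 40 nt in EAE_2, with none in EAE_4. The nearest naive footprint was 3243 nt away. The Grn region was 102 nt long and was covered over 98, 47 and 72 nt in EAE_3, EAE_4 and EAE_7 and over 102, 98 and 70 nt in EAE_1, EAE_5 and EAE_6. The Arrb2 region of 135 nt had a naive footprint 252 nt away, the closest among these regions of coding exons with 6 mice. The A2m region of 128 nt was covered over as little as 26 nt, in EAE_1, and as much as 128 nt, in EAE_7 and EAE_5. A region of 245 nt in Sptbn1, the gene of beta spectrin 1 in the membrane skeleton, was also found in 6 mice, but no base of it was covered in all of them. The same held for a 3′ UTR region of 475 nt in Ywhag, a 14-3-3 adaptor protein, which had a footprint in 2 mild and all 4 severe EAE mice.

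Most selected regions met the rule by its minimum. A footprint in exactly 2 mild and 1 severe EAE mouse was found in 1378 regions (68.4%). All 3 mild EAE mice had a footprint in 460 regions (22.8%), and at least 2 severe EAE mice in 245 regions (12.2%). The most frequent pair of mild EAE mice was EAE_3 with EAE_7, which alone accounted for 868 regions, against 378 for EAE_4 with EAE_7 and 309 for EAE_3 with EAE_4. Just outside the rule lay 4258 regions with 1 mild and at least 1 severe EAE mouse, 1411 with at least 2 mild and no severe EAE mouse, and 1769 that met the EAE part of the rule but had a footprint in 1 naive mouse. Where mice shared a region they mostly shared the same bases: 1858 regions (92.2%) had a stretch covered in every footprinted mouse, with a median length of 71 nt, and 1920 (95.3%) had a base covered in at least 2 mild and 1 severe EAE mouse.

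The regions followed exons. By the annotation at the midpoint, 1563 regions (77.6%) lay in coding sequence, 84 (4.17%) in 3′ UTRs, 44 (2.18%) in 5′ UTRs, 160 (7.94%) in noncoding exons, 124 (6.15%) in introns and 40 (1.99%) outside genes. Of all 82220 union regions, 49.5% lay in coding sequence and 28.2% in introns. The median length was 133 nt and the range was 26 to 2200 nt. In 1551 regions (77%), a footprint of at least 1 mouse started at an exon start or stopped at an exon end. Exactly the extent of 1 exon was found for 563 regions (27.9%). These traits were not particular to the selected regions. Of regions that met the EAE part of the rule and had a naive footprint, 73.5% lay in coding sequence, 71.8% had such a footprint edge and 28.1% matched 1 exon. Of regions of mild EAE only, 73.3%, 70.4% and 17.2% did. Any footprint in a region could supply the edge, and the sets differ in mice per region. The shares with such an edge are therefore not like for like. Footprints were made from assembled contigs that were aligned across splice junctions, so neighbouring exons of 1 contig appear as separate regions, and regions of 1 gene are not independent of each other. A gene with at least 1 further region carried 1308 of the regions (64.9%).

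**Figure D2:**
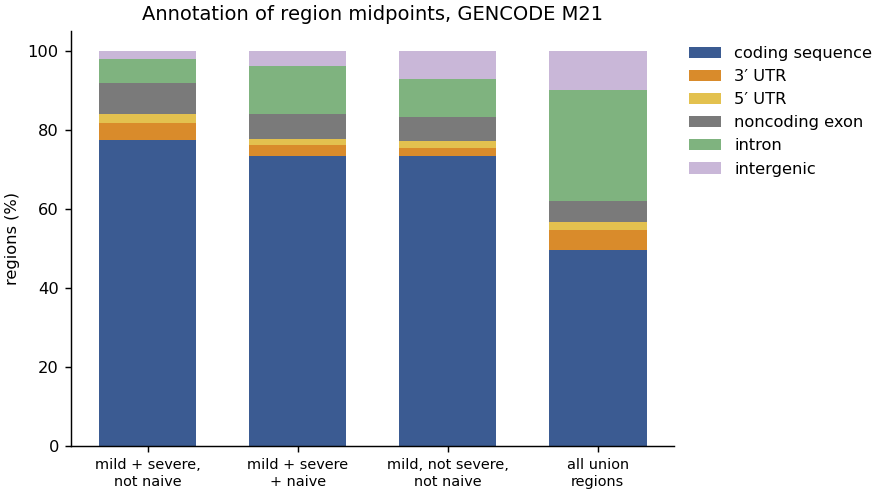
Stacked bars show the percentage of regions, on the vertical axis, by the GENCODE M21 annotation of their midpoint, for regions of mild and severe EAE not in naive mice, regions that also had a naive footprint, regions of mild EAE only, and all union regions. Introns made up 6.15%, 12.2%, 9.71% and 28.2% in that order.

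The 3 shortest regions, of 26 or 27 nt, lay in coding exons of Cope, Col6a1 and 5031439G07Rik. The longest, 2200 nt, was intronic, in Tgfbr1, the type I receptor for TGF-beta. A second intronic region of Tgfbr1 was 858 nt long. The next longest were a pair of 958 nt regions on chromosome 2 outside genes, with the same covered lengths in every mouse and near-identical sequence elsewhere in the genome.

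The regions lay on 1344 genes, of which 1115 were protein-coding and 126 were pseudogenes. Naive mice had a footprint elsewhere on 1054 of these genes (78.4%, 95% Wilson interval 76.1 to 80.5%, which covers counting error only). On the other 290 genes, no naive mouse had any footprint. Among all 4078 genes with a footprint in at least 2 mild and 1 severe EAE mice, 1341 (32.9%) were overlapped by a selected region, and 490 (12%) had no naive footprint. Of the regions on an exon, 284 of 1861 (15.3%) had a naive footprint in the same exon. The nearest naive footprint lay at a median of 1752 nt, within 100 nt for 7.74% of regions and within 1000 nt for 40.5%. Most of these genes thus had footprints in naive cord at other positions. The authors subtracted each mouse's own input, so a missing footprint can also come from the input subtracted there. The inputs were not analysed here.

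C3 held more regions than any other gene, 16, on 16 of its 42 exons (chr17:57203970-57228136). C3 is the central component of the complement cascade. Footprints covered 343, 209 and 272 nt of the gene in the naive mice and 3363, 1308 and 1591 nt in EAE_3, EAE_4 and EAE_7. Of the severe EAE mice, EAE_5 covered 3192 nt, EAE_6 165 nt, EAE_1 163 nt and EAE_2 none. Each mild EAE mouse and EAE_5 therefore exceeded all naive mice, while the other severe EAE mice fell below them. C3 was named for its selected regions, which by the rule have no naive footprint, so this excess in part restates the choice. The same limit holds for the other genes named for their regions. Naive footprints touched 7 exons, mild footprints 37 and severe footprints 31. All 16 regions were in coding sequence and none had a near-identical copy elsewhere. Without EAE_5, 2 of the C3 regions were left.

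**Figure D3:**
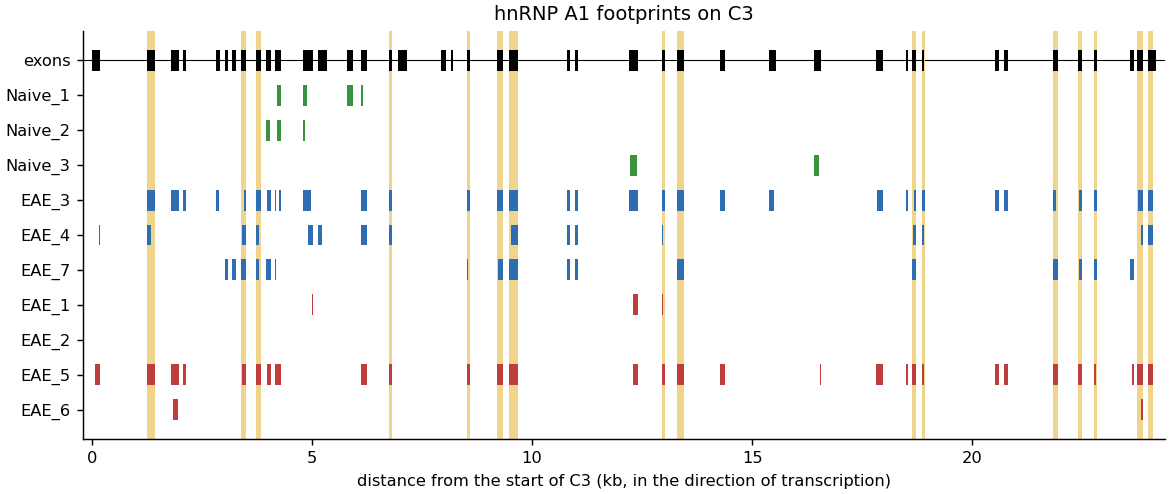
Footprints on C3 are drawn as boxes, 1 row for each mouse (naive green, mild EAE blue, severe EAE red), against the distance from the start of the gene in kb, with exons in black and the 16 regions of mild and severe EAE, not naive, shaded. Naive footprints touched 7 of 42 exons, and EAE_2 had no footprint on the gene.

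Complement and Fc receptor genes carried 37 of the regions. Of the 8 genes of that list with a footprint in at least 2 mild and 1 severe EAE mice, 6 (75%) carried a selected region and 5 (62.5%) had no naive footprint at all, against 32.9% and 12% over all genes. C4b, complement component 4B, held 14 regions. Its covered length was 653, 255 and 952 nt in the naive mice, 3174, 1607 and 3228 nt in EAE_3, EAE_4 and EAE_7, and 1335, 0, 4086 and 213 nt in EAE_1, EAE_2, EAE_5 and EAE_6. All mild EAE mice, EAE_1 and EAE_5 lay above the naive mice, which the choice of the gene by its selected regions favours. A near-identical copy was found elsewhere in the genome for 11 of the 14 regions, since C4b has a close neighbour, C4a, so the assignment of these footprints to C4b is uncertain. Without EAE_5, C4b held 7 regions, more than any other gene.

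Other genes of this list had no naive footprint. C1qa, which encodes a chain of the C1q recognition molecule, was covered over 337, 386 and 213 nt in EAE_3, EAE_4 and EAE_7, 417 nt in EAE_5 and 21 nt in EAE_6. Serping1, the C1 inhibitor, was covered over 227, 369 and 338 nt in the mild EAE mice and 326 nt in EAE_5. The inhibitory Fc gamma receptor gene Fcgr2b was covered over 139 nt in EAE_3, 231 nt in EAE_7 and 317 nt in EAE_5, with no footprint in EAE_4. Both Fcgr2b regions had a near-identical copy elsewhere, so their assignment is uncertain. These genes are grouped here by having no naive footprint, so any footprint on them exceeds the naive level of 0 by that choice. EAE_1 and EAE_2 had no footprint on them.

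Genes of microglia and leukocytes were the list most often without a naive footprint. Of 14 such genes with a footprint in at least 2 mild and 1 severe EAE mice, 12 (85.7%) carried a selected region and 11 (78.6%) had no naive footprint, against 32.9% and 12% over all genes. Csf1r, the receptor for colony stimulating factor 1 on which microglia depend, was covered over 761, 76 and 1119 nt in EAE_3, EAE_4 and EAE_7 and over 102, 0, 1504 and 48 nt in EAE_1, EAE_2, EAE_5 and EAE_6. Laptm5, a lysosomal membrane protein of blood-derived cells, was covered over 131, 158 and 202 nt in the mild EAE mice and 448 nt in EAE_5. Cd84, a leukocyte adhesion receptor, and Spp1, the secreted protein osteopontin, were the genes of this list with a selected region and a naive footprint. For Cd84 that footprint was 117 nt in Naive_2, against 313, 629 and 1853 nt in the mild EAE mice and 1747 nt in EAE_5. Mpeg1 (perforin-2 of macrophages), which was on no list, held 4 regions and was covered over 993, 172 and 1312 nt in the mild EAE mice, 1410 nt in EAE_5, 262 nt in EAE_6 and 0 nt in the naive mice. Lyz2, Itgb2, Gpnmb, Cd68, Lcp1, Itgam and Tyrobp also carried at least 1 region and had no naive footprint.

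Of 6 defining markers of microglia and macrophages, each naive mouse had a footprint on 1, the mild EAE mice on 4, 3 and 4, EAE_5 on 5, EAE_1 on 2, EAE_6 on 1 and EAE_2 on 0. Of 8 defining markers of T and B cells, none had a footprint in any mouse, and the corresponding gene list contributed no region. Neuron markers had footprints in every naive mouse, on 7, 7 and 8 of 8 genes. The mild EAE mice had them on 7, 7 and 8 as well, and EAE_1, EAE_2, EAE_5 and EAE_6 on 2, 0, 8 and 0. The part that the mix of cells had in the selected regions was not tested.

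Antigen presentation genes also often lacked naive footprints. Of 14 MHC and antigen presentation genes with a footprint in at least 2 mild and 1 severe EAE mice, 9 (64.3%) carried a region and 7 (50%) had no naive footprint, against 32.9% and 12% over all genes. Cd74, the invariant chain of MHC class II, held 4 regions on 4 of its 9 exons and was covered over 412, 337 and 597 nt in EAE_3, EAE_4 and EAE_7, 608 nt in EAE_5 and 80 nt in EAE_6, with 0 nt in each naive mouse. The class II chain gene H2-Aa held 3 regions and was covered over 513, 105 and 594 nt in the mild EAE mice, 585 nt in EAE_5 and 413 nt in EAE_1. Its partner chain H2-Ab1 was covered over 410, 31 and 362 nt in the mild EAE mice and 364 nt in EAE_5. The class I genes H2-K1 and H2-D1 carried 1 region each and had naive footprints. Class II genes thus had footprints in EAE cords and in no naive cord, whereas these class I genes had them in both.

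Lysosomal genes of phagocytes carried 29 regions, on 11 of 16 genes (68.8%, against 32.9% over all genes), and 6 (37.5%, against 12%) had no naive footprint. Grn, shown above, held 4 regions and was covered over 537, 309 and 815 nt in EAE_3, EAE_4 and EAE_7, 102 nt in EAE_1, 700 nt in EAE_5 and 116 nt in EAE_6, against 127 nt in Naive_2 and 0 nt in the other naive mice. Lgmn, the asparaginyl endopeptidase legumain, held 4 regions and was covered in every naive mouse, over 126, 116 and 152 nt, against 750, 300 and 686 nt in the mild EAE mice, 607 nt in EAE_1 and 1388 nt in EAE_5. Ctsz, the protease cathepsin Z, was covered over 527, 153 and 239 nt in the mild EAE mice, 221 nt in EAE_1 and 826 nt in EAE_5, and in no naive mouse. For Grn and Lgmn each mild EAE mouse, and EAE_5, exceeded every naive mouse. Both genes were named for holding selected regions, so this excess in part restates the choice.

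**Figure D4:**
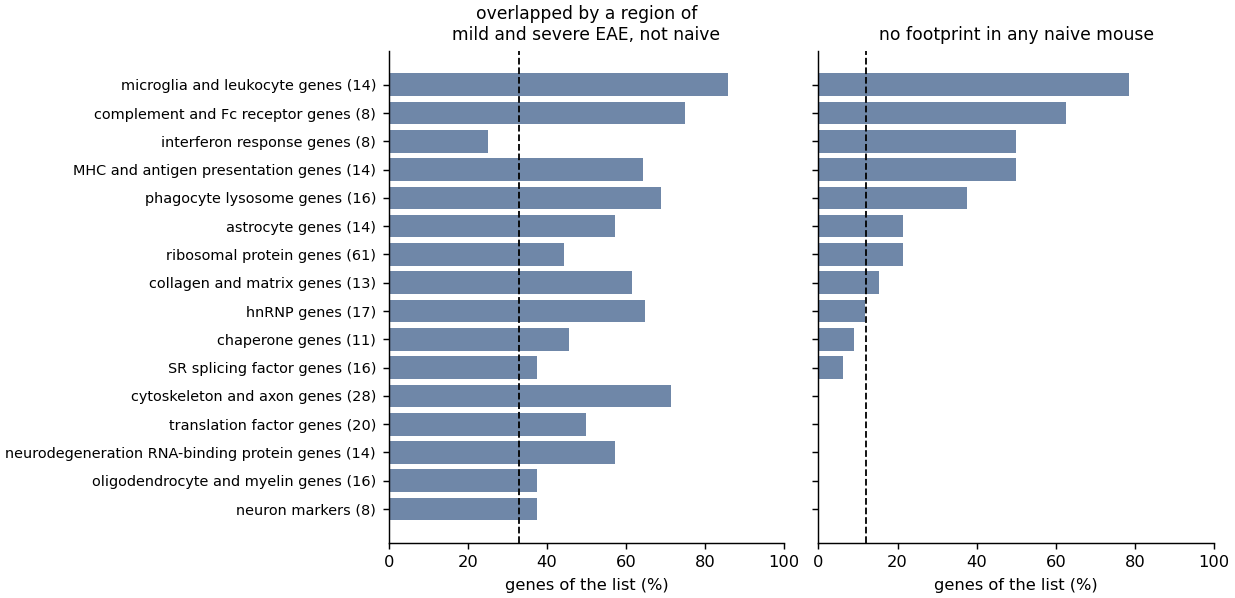
Bars show, for gene lists on the vertical axis (number of genes with a footprint in at least 2 mild and 1 severe EAE mice in brackets), the percentage overlapped by a region of mild and severe EAE, not naive (left) and the percentage with no footprint in any naive mouse (right), and dashed lines show 32.9% and 12% over all 4078 such genes. Microglia and leukocyte genes reached 85.7% and 78.6%, and cytoskeleton and axon genes 71.4% and 0%.

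Cytoskeleton and axon genes were the opposite case. Of 28 such genes, 20 (71.4%) carried selected regions, 72 in all, against 32.9% over all genes. Yet every one of the 28 had naive footprints. The share over all genes does not allow for the number of footprints per gene. A gene with many footprints has more room for a selected region and for a naive footprint, in this list and in the others. The part of this in the shares was not tested. Dst, the giant cytolinker dystonin, held 11 regions, on 11 of its 106 exons. It was covered over 10032, 3536 and 9098 nt in the naive mice, 7533, 6838 and 10284 nt in EAE_3, EAE_4 and EAE_7, and 1317, 0, 15756 and 248 nt in EAE_1, EAE_2, EAE_5 and EAE_6. Naive footprints lay on 80 of its exons, and the covered lengths of mild and naive mice overlapped. Kif5a, a neuronal kinesin heavy chain, held 7 regions and was covered over 2302, 757 and 1238 nt in the naive mice and 2021, 757 and 1729 nt in the mild EAE mice. Nefh, the heavy neurofilament chain, held 3 regions on 3 of its 4 exons and was covered over 144, 0 and 319 nt in the naive mice, 157, 293 and 777 nt in the mild EAE mice and 963 nt in EAE_5. In each of these genes the naive and mild ranges overlapped. Lrp1, an endocytic receptor of many cell types, held 12 regions in the same manner, with naive footprints on 60 of its 88 exons. Its covered length was 6067, 1256 and 4866 nt in the naive mice and 5622, 3661 and 6375 nt in the mild EAE mice.

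Of 13 collagen and matrix genes with a footprint in at least 2 mild and 1 severe EAE mice, 8 (61.5%) carried a selected region. The share over all genes was 32.9%. No naive footprint was found on 2 (15.4%), against 12% over all genes. Among these matrix genes, Fn1 (fibronectin) and Col1a1 held 8 regions each. Fn1 was covered over 0, 815 and 813 nt in the naive mice, 1613, 1125 and 3150 nt in the mild EAE mice, and 685, 259, 4699 and 150 nt in EAE_1, EAE_2, EAE_5 and EAE_6. All 3 mild EAE mice and EAE_5 exceeded the naive mice, and the other severe EAE mice did not exceed Naive_2. Fn1 was named for its selected regions, so this excess in part restates the choice. Col1a1 was covered over 386 nt in Naive_2 only, over 681, 424 and 1848 nt in the mild EAE mice and over 423, 201, 1372 and 590 nt in EAE_1, EAE_2, EAE_5 and EAE_6. It was thus covered in all 7 EAE mice. Without EAE_5, Fn1 held no selected region and Col1a1 held 3. In the other matrix genes with a selected region, not every mild EAE mouse exceeded the naive mice. The naive and mild ranges overlapped for Col4a2, Col6a1, Col6a2, Col1a2 and Lamc1. Col4a2 was covered over 1565, 1108 and 981 nt in the naive mice and 1582, 1056 and 1725 nt in the mild EAE mice. Dcn had no footprint in the naive mice or in EAE_4.

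Glial genes outside the microglial list were mixed. Of 14 astrocyte genes, 8 (57.1%) carried a region and 3 (21.4%) had no naive footprint, against 32.9% and 12% over all genes. Slc1a2, the main glutamate transporter of astrocytes, held 4 regions and was covered over 1674, 771 and 2268 nt in the naive mice and 2235, 1847 and 3140 nt in the mild EAE mice. Serpina3n, a protease inhibitor of reactive astrocytes, held 2 regions and was covered over 566, 146 and 837 nt in the mild EAE mice, 313 nt in EAE_1 and 1300 nt in EAE_5, with 0 nt in the naive mice. The oligodendrocyte and myelin list had a region on 6 of 16 genes (37.5%, near the share over all genes), and all 16 had naive footprints. One of these was Cnp, but its 3 regions lay on exons of the overlapping gene Dnajc7 and on none of Cnp.

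Of 17 hnRNP genes, 11 (64.7%) carried selected regions, against 32.9% over all genes. Hnrnpa1, which encodes the immunoprecipitated protein, held 2 coding regions of 93 nt each, footprinted in all 3 mild EAE mice and EAE_5, and both had a near-identical copy elsewhere in the genome. The gene was covered over 168, 0 and 492 nt in the naive mice and 328, 266 and 325 nt in the mild EAE mice, so the groups overlapped. Hnrnpu, a nuclear matrix and chromatin associated hnRNP, held 3 regions and was covered over 466, 327 and 662 nt in the naive mice and 586, 728 and 1343 nt in the mild EAE mice. Of the neurodegeneration RNA-binding protein genes, 8 of 14 (57.1%) carried a region. Of the SR splicing factor genes, 6 of 16 (37.5%) did, which is near the 32.9% over all genes.

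A list held 9 genes that the study names, not all that it examined. Of these, 8 had a footprint in at least 2 mild and 1 severe EAE mice. A selected region was carried by 4 of the 8 (50%), against 32.9% over all genes. For 2 of these 4 genes no region had a near-identical copy elsewhere. Macf1, a giant linker of actin and microtubules, carried 3 coding regions without a copy, 485 nt in all. The whole gene was covered over 6467, 5087 and 10982 nt in the naive mice and 3436, 3981 and 10539 nt in EAE_3, EAE_4 and EAE_7. The naive and mild ranges of Macf1 thus overlapped. Mapt, which encodes tau, carried 1 region of 134 nt, but the region lay on no exon of Mapt, overlapped smaller annotated genes inside it and had a near-identical copy elsewhere. Pkm, which encodes pyruvate kinase, carried 1 coding region of 167 nt, also with a near-identical copy elsewhere, footprinted in 3 mild and 1 severe EAE mice. A near-identical copy was defined as at least 95% identity over at least 90% of the length. It was present for 398 of all 2015 regions (19.8%) and for 21.7% of the regions of mild EAE only. The share was 14.3% of the 4003 regions that met the EAE part of the rule and also had a naive footprint.

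The regions were compared with those 4003 regions within each EAE mouse, over the 6 mice with at least 20 footprints in both sets. This leaves depth and library common to both sides. In footprints of the selected regions the intronic share was 4.77%, 8.46% and 6.67% in EAE_3, EAE_4 and EAE_7 and 5.91%, 6.02% and 10.6% in EAE_1, EAE_5 and EAE_6, against 10.5%, 17.2%, 13.1%, 11%, 13.1% and 20% in regions that also had a naive footprint. The mean difference was −7.07 ± 1.71 percentage points (SD, n = 6 mice), lower in 6 of 6 mice, with adjusted p = 0.0469 in a two-sided exact sign-flip permutation test. That adjustment covered 6 features including footprint length, which enters the rule. Over the other 5 features the adjusted p of the exact permutation test was 0.0521 for the intronic share, UAG and AGGU, so none of these passed the threshold. A smaller p than 0.0312 before adjustment cannot be reached with 6 mice, and by the rule the mice share regions, so these p-values do not rest on independent sets of regions. The intronic share did not pass after adjustment when all other footprints of the mouse were the comparison or when only footprints of at most 200 nt were used (adjusted p = 0.0625, exact permutation test), although all 6 mice still differed in the same direction.

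UAG and AGGU were less dense in the selected regions than in regions that also had a naive footprint. Both motifs were searched in the sense direction, in footprints that overlapped exactly 1 gene. UAG density was 6.74 ± 0.798 per 1000 nt (SD, n = 6 mice) in footprints of the selected regions and 16.9 ± 6.2 in footprints of regions that also had a naive footprint, lower in 6 of 6 mice (adjusted p = 0.0469, exact sign-flip permutation test). AGGU density was 3.4 ± 0.204 against 6.58 ± 2.77 per 1000 nt, also lower in 6 of 6 mice (adjusted p = 0.0469, exact sign-flip permutation test). EAE_6 had the widest gap, with 6.65 against 29.3 UAG per 1000 nt. Against all other footprints of the same mouse, or with footprints of at most 200 nt, both motifs were still lower in 6 of 6 mice, with adjusted p = 0.0625 in the exact permutation test.

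Counted once per region, UAG occurred 7.32 times per 1000 nt in selected regions and 12.6 times in flanking windows, which lay 200 nt upstream and downstream of each region and matched its length. At least 1 UAG was found in 49.5% of the regions on 1 gene and in 74.5% of these windows. For AGGU the shares were 38% and 44.6%. This was not particular to the selected regions. In regions with a naive footprint the shares were 56.6% and 77.5% for UAG and 46.7% and 50.3% for AGGU. In regions of mild EAE only they were 46.5% and 67.7% for UAG and 34.8% and 38.1% for AGGU. The windows were not matched for annotation, and most regions lay in coding sequence. The densities depended on the annotation. In coding sequence UAG density was 5.09 per 1000 nt in selected regions and 5.72 in regions with a naive footprint. The flanking windows of these coding regions had 12.5 and 12 per 1000 nt. In introns it was 18.5 against 34.9 per 1000 nt, with 14.7 and 15.5 in the flanking windows. AGGU density in introns was 4.91 against 9.19 per 1000 nt. The 113 intronic selected regions on 1 gene thus stood nearer to their flanks in both motifs, and the 464 intronic regions that naive mice shared stood above theirs. Regions of mild EAE only had values like those of the selected regions, with 8.93 UAG and 4.08 AGGU per 1000 nt over all annotations. Their intronic UAG density was 19.3 per 1000 nt, against 13.7 in flanking windows.

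**Figure D5:**
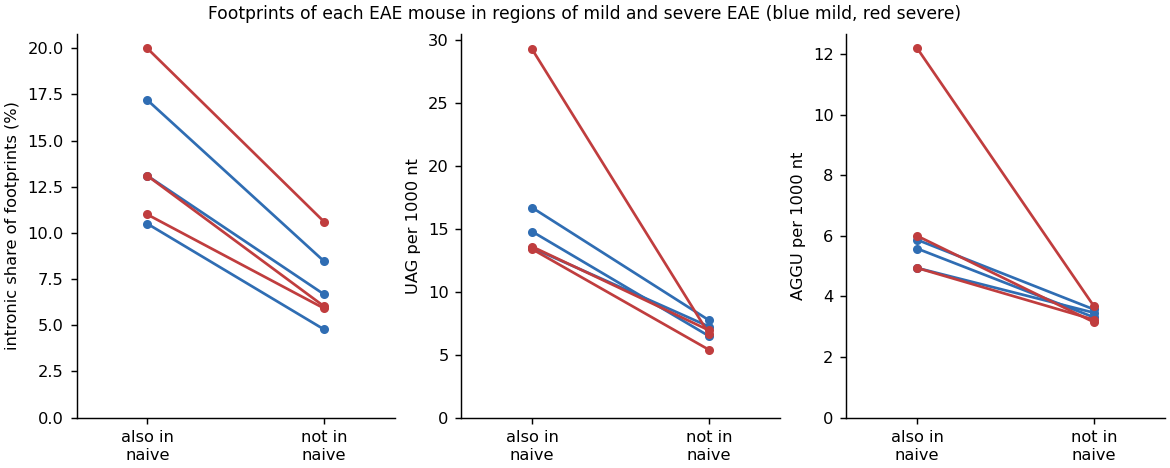
Each line joins the values of 1 EAE mouse (3 mild in blue, 3 severe in red) in regions of mild and severe EAE that also had a naive footprint (left point) and in regions without one (right point), for the intronic share in percent, UAG per 1000 nt and AGGU per 1000 nt. All 6 lines fall in each panel, and the UAG means are 16.9 and 6.74 per 1000 nt.

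The 3′ UTR share and base composition did not pass the test. The 3′ UTR share was 5.66% ± 2.76 against 4.27% ± 2.38 (SD, n = 6 mice), higher in 5 of 6 mice (adjusted p = 0.0625, exact sign-flip permutation test). G and C content was 52.2% ± 1.32 against 50.3% ± 1.62, higher in 5 of 6 mice (adjusted p = 0.0625, exact sign-flip permutation test). The median footprint was 106 nt long in selected regions and 117 nt in the others as a mean over the 6 mice. Length enters the rule, since a longer region has more room for a naive footprint, so this difference is a description.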

How the data were processed

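hnRNP A1 was immunoprecipitated from 10 spinal cords. Per the labels, reads were demultiplexed with bcl2fastq 2.19.0.316, trimmed with fastp and aligned with minimap2 2.17 to GRCm38; the methods describe contigs assembled with rnaSPAdes, from which matched input and pooled IgG were subtracted. The labels and the methods name different antibody clones. The deposited footprints are merged intervals without strand, read count or score, so the depth behind a footprint is unknown, and totals of 209 to 31870 footprints per mouse limit precision. The study reports mapped reads per library and calls depth similar among samples. Among the immunoprecipitations these reads were most numerous in EAE_5, followed by EAE_7 and EAE_2, and every naive library had fewer than each of these. EAE_2 nevertheless had only 209 footprints. Reads of EAE_1 and EAE_6 lay within the range of the naive libraries. These mice had 2670 and 673 footprints, against 17119 to 17494 in the naive mice. The part of library depth in the absence of naive footprints was not tested.

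All 136207 footprints were joined into union regions and annotated with GENCODE M21. A gene was counted where its span was overlapped. The regions, gene lists and comparisons were chosen with earlier results of these data known. Named genes were those of the regions in most mice (12), the genes with most regions (10), up to 6 genes per list and the genes examined by the study; results for some are not reported here. Further genes without a naive footprint were named after their values were seen. Near-identical copies were searched with minimap2 2.31. Differences within mice were tested by two-sided exact sign-flip permutation (scipy 1.17.1 for intervals), with Benjamini-Hochberg adjustment over 6 features. In simulated data, 200 of 200 seeded regions were recovered. These were built apart from each other to meet the rule, so this checks the code and not the real footprints. The alternatives tried are in the closing section.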

Additional observations from a re-analysis of the deposited data

Results flagged for a closer look

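In the 4 severe EAE mice, EAE_5 lay far from the other 3 by the gap to its nearest neighbour over the whole range, which exceeded Dixon's 95% critical value for 4 samples. The ratio was 0.893 for the number of selected regions and 0.908 for the nucleotides covered in them. Covered lengths were also checked for 28 genes, and 19 were flagged, all toward a high EAE_5. Chance flags about 5% of groups, but these genes carry regions in which EAE_5 was mostly the only severe EAE mouse, so the flags restate that choice and cannot be set against chance. The ratio was 1 for Serping1, Fcgr2b, H2-Ab1, Laptm5, Cd84, Nefh and Hnrnpu, where the other severe EAE mice had no footprint. It was 0.948 for C3, 0.95 for C1qa, 0.932 for Csf1r, 0.868 for Cd74 and 0.834 for Grn among immune and lysosomal genes. It was 0.916 for Dst, 0.882 for Fn1, 0.856 for Slc1a2, 0.913 for Cnp, 0.954 for Hnrnpa1, 0.834 for Mapt and 0.909 for Tgfbr1. EAE_5 also had 31870 footprints in all, against 209 to 2670 in the other severe EAE mice, and the genes are not independent of that total.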

How the results depend on the processing

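The main values were 2015 regions, 1344 genes and a share of 78.4% of genes with a naive footprint. Requiring all 3 mild EAE mice left 460 regions on 372 genes (82.3%), and requiring 2 severe EAE mice left 245 regions on 216 genes (72.7%). Leaving out 1 mouse at a time gave 306 to 2790 regions, 263 to 1687 genes and shares of 71.5 to 82.5%. The count fell to 306 without EAE_5, 778 without EAE_7, 837 without EAE_3 and 1328 without EAE_4. The share was 86% over protein-coding genes and 85.4% over regions without a near-identical copy, an alternative added after seeing the data. Against all other footprints of the same mouse, the differences were −13.5 percentage points for the intronic share, −6.09 and −1.3 per 1000 nt for UAG and AGGU and −12.2 nt for footprint length, none past the threshold of the adjusted p, and that of the 3′ UTR share turned to −1.08 percentage points. With footprints of at most 200 nt they were −6.1, −8.56, −2.73 and −6.08, also no longer past it. Leaving out 1 mouse gave −7.47 to −6.6 for the intronic share, −10.9 to −7.65 for UAG, −3.52 to −2.12 for AGGU and −11.8 to −9 nt for length, where 5 mice cannot reach the threshold. With adjusted p-values over 5 features, without length, an alternative also added later, −7.07 for the intronic share, −10.1 for UAG and −3.18 for AGGU no longer passed either. With all 7 EAE mice, the difference in G and C content passed at 2.22 percentage points. The cause of these changes was not tested. No paired analysis was possible because replicate numbers name different animals and so pair no mice between groups. The tests are paired within each mouse instead. Counts of footprints give presence only, so binding strength could not be compared.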

Other observations

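Ribosomal protein genes were a further group in these regions. Of 61 with a footprint in at least 2 mild and 1 severe EAE mice, 27 (44.3%) carried a selected region, against 32.9% over all genes. No naive footprint was found on 13 of the 61 (21.3%), against 12% over all genes. Rpl32, a protein of the large subunit, held 3 regions and was covered over 250, 142 and 359 nt in EAE_3, EAE_4 and EAE_7 and over 142, 140, 358 and 141 nt in EAE_1, EAE_2, EAE_5 and EAE_6, with 0 nt in the naive mice. Of these 3 regions, 2 had a near-identical copy elsewhere, so coverage in all 7 EAE mice rests in part on footprints of uncertain assignment. The region at its 5′ UTR also overlapped the small nucleolar RNA gene Snora7a. Near-identical copies were present for all 3 regions of Rps26 and of Rpl28 and for all 4 of Rps25, so their assignment is uncertain.

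Of 8 interferon response genes with a footprint in at least 2 mild and 1 severe EAE mice, 2 (25%) carried a selected region, near the 32.9% over all genes, and 4 (50%) had no naive footprint, against 12%.

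All mice were female, yet 7 of the selected regions (0.347%) were placed on chromosome Y. Of these, 5 had a near-identical copy elsewhere in the genome, 4 lay in no gene and 3 lay in introns of Gm47283.

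When a gene was counted only where 1 of its exons was overlapped, 12 of 13 microglia and leukocyte genes (92.3%) carried a selected region and 11 (84.6%) had no naive footprint, against 35.5% and 14.8% of all 3236 genes counted in this way. Without EAE_5, 5 of 5 microglia and leukocyte genes with the required footprints had no naive footprint and 3 (60%) carried a selected region, against 9.29% and 21.1% of 1249 genes. For complement and Fc receptor genes these counts were 2 (40%) and 3 (60%) of 5, and for cytoskeleton and axon genes 0 and 10 (52.6%) of 19.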
